A study of Rattus norvegicus with 2 samples.

Results

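Caspases, the BCL2 family and the death receptors with their adaptors and inhibitors were examined here in rat liver RNA. Members were chosen by gene symbol (caspases, BCL2 family proteins, inhibitors of apoptosis, TNF receptor superfamily members, the FAS system and its adaptors), each read by its brightest probe, meaning the probe with the highest mean log2 signal of both arrays, and kept when that probe carried the detection letter P on at least 1 array. Of 55 matching symbols, read by 72 probes, 50 were kept, out of 11912 genes kept by the same filter in the whole table. The letter P was on both arrays for 46 members and on 1 array for 4 (Bcl2l11, Faslg, Tnfrsf10b and Tnfrsf18). The 5 symbols left out were Bcl2l14, Bik, Casp14, Tnfrsf8 and Tnfrsf26, with the letter A on both arrays. Close to that border, Bik, left out, read 3.95 in the propolis and 3.50 in the saline pool, while Faslg, kept, read 4.07 with P and 3.97 with A.

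Both groups were male Wistar rats aged 22 weeks with a fatty liver induced by 52% alcohol, given at 1% of body weight for 7 weeks. For 4 more weeks one group then received a compound that the labels abbreviate EEP, in 50% ethanol, and the other normal saline, each at 0.1% of body weight; they are called propolis and saline below, after the propolis extracts named in the title of the series. The saline group received no ethanol vehicle in those weeks, so that extract and vehicle cannot be told apart, and rats without alcohol are not analysed here. The RNA of 6 rats made up each group's pool, and each pool was measured on a single-colour Agilent array, 1 array in each group. There is thus no replicate check and no p-value, and differences are given on the log2 scale, propolis minus saline, between these 2 pools.

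The letter P was on 24380 of 41012 probes (59.4%) of the propolis array and on 24344 (59.4%) of the saline array. The lowest signal with P was 3.83 on both arrays, and members near it have an uncertain difference. The defining hepatocyte markers were present at a high signal, with albumin (Alb) at 18.08 and 17.87 and transthyretin (Ttr) at 17.81 and 17.55 in the propolis and saline pool, but hepatocyte markers went both ways. Of the 6 listed, 3 were higher in the propolis pool (up to 0.26, Ttr) and 3 lower (Apoa1 at -0.11, Serpina1 at -0.34 and Cps1 at -0.56), with a median of 0.03. Among 2595 genes with at least 2 probes that had P on both arrays, the robust SD of a difference per probe was 0.16 log2 units; it was 0.31 at a mean signal under 6, 0.19 from 6 to 8, 0.14 from 8 to 10 and 0.11 from 10. That spread covers probes on the same arrays and leaves out the spread between rats.

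Apoptosis is a controlled form of cell death carried out by caspases, proteases that are made inactive and switched on by cleavage. In the extrinsic route a ligand such as FAS ligand or TNF binds a death receptor, whose adaptors recruit and activate caspase 8. In the intrinsic route BH3-only proteins release the pore formers BAX and BAK from the survival proteins of the BCL2 family, cytochrome c leaves the mitochondria, and the apoptosome activates caspase 9. Both routes meet at the executioner caspases, and inhibitors of apoptosis restrain them. Hepatocytes carry the FAS and TNF receptors and need the mitochondrial step, through cleavage of BID, for FAS to kill them. Much of the control of these proteins lies in cleavage, binding and location, which an RNA signal does not measure.

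Most members differed little between the pools. Of 50 members, 45 (90%) differed by less than 1.5-fold as measured, against 81.7% of all 11912 genes. None was at least 2-fold higher in the propolis pool, where 3.57% of all genes were, and 2 (4%) were at least 2-fold lower, Tnfrsf9 and Tnfrsf18, where 5.08% of all genes were. Tnfrsf18 has A on the propolis array, and with genes of that kind at their bound 1 member, Tnfrsf9, was at least 2-fold lower. At the 1.5-fold rule 2 members (4.00%), Bcl2l11 and Birc2, were higher, against 8.07% of all genes, and 3 (6%), Birc5 with both receptors, were lower, against 10.2%. Bcl2l11 has A on the saline array, and with such genes at their bound 1 member, Birc2, was higher and 2, Birc5 and Tnfrsf9, were lower. Differences above 0 were seen for 29 members (58%) and for 52.4% of all genes, and the median difference was 0.09 for members and 0.02 for all genes. The median size of the difference without its sign was 0.24 for members and 0.22 for all genes, at a median signal of 7.62 and 8.08. None of these shares sets the members apart from the background in the table.

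**Figure D1:**
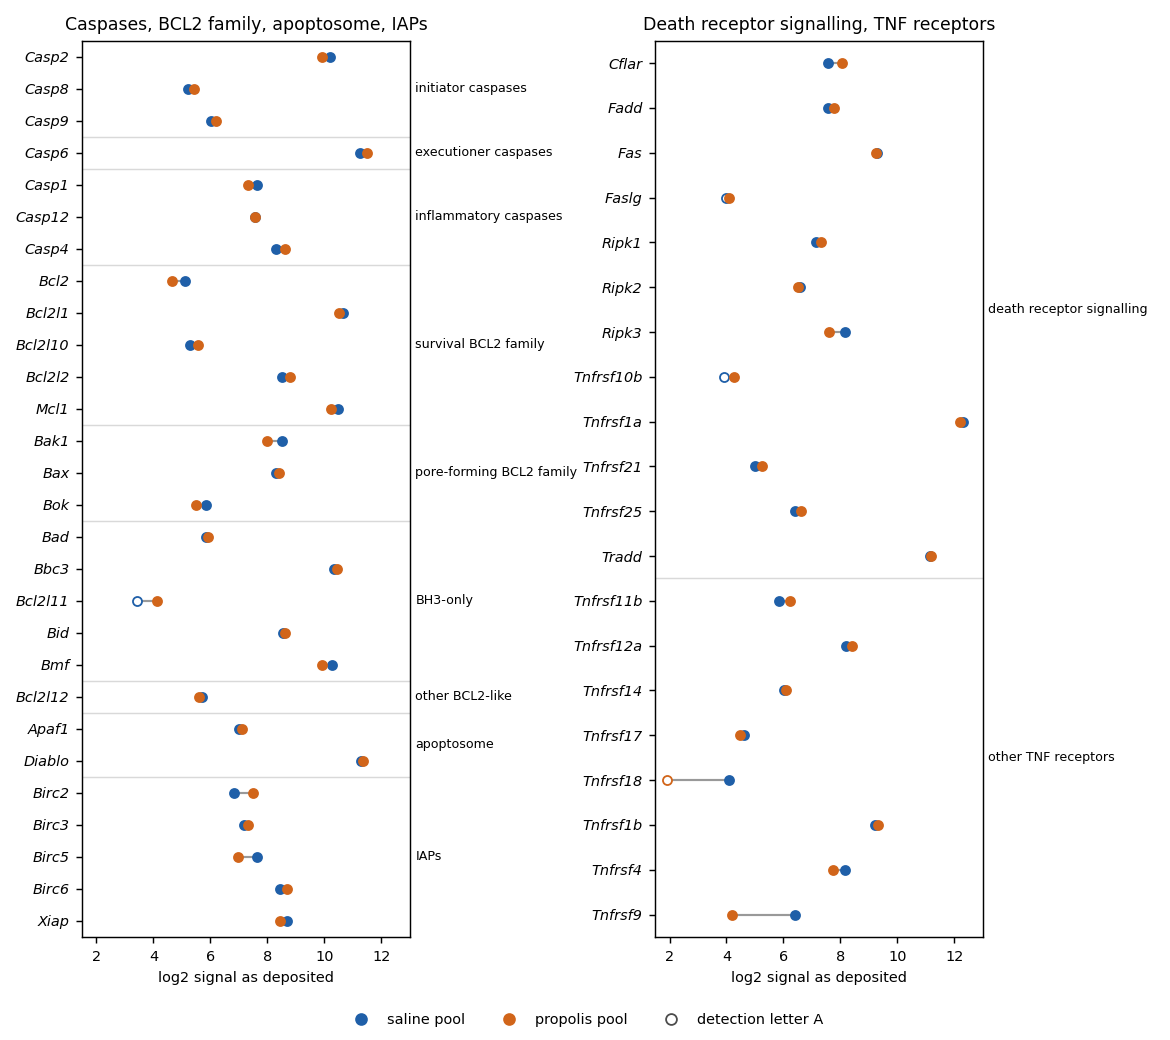
Log2 signal as deposited (horizontal axis) of 48 of the 50 members in the saline pool (blue) and the propolis pool (orange), grouped by role; hollow points carry the detection letter A. Each point is 1 pooled array, so there are no error bars, and wide gaps are seen for Tnfrsf9 (6.39 in the saline and 4.18 in the propolis pool) and Tnfrsf18 (4.10 and 1.91); signals of different probes are not comparable with each other.

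The widest gaps lay among TNF receptors that act in immune cells and hold no death domain. Tnfrsf9 encodes 4-1BB (CD137), a costimulatory receptor that appears on activated T and NK cells. Its signal was 4.18 in the propolis pool and 6.39 in the saline pool, both with P, a difference of -2.21 (4.63-fold lower). Among 10977 genes with P on both arrays, 34 had a lower difference. Tnfrsf9 had 1 probe, on chromosome 5 from 168090349 to 168099251, and its propolis signal stood close to the lowest signal with P (3.83), so that the size of the fold is uncertain; with 50 signal units added to both pools the difference was -0.97. Tnfrsf18 encodes GITR, which regulatory and activated T cells carry. It read 1.91 with A in the propolis pool and 4.10 with P in the saline pool, a measured difference of -2.19. Set against the lowest signal with P on the propolis array, the measured signal of Tnfrsf18 supports only a bound, at least 1.21-fold lower. Tnfrsf4, the OX40 receptor of activated T cells, read 7.73 and 8.17 with P on both arrays (-0.44, 1.36-fold lower).

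These 3 receptor genes lie on chromosome 5, and only Tnfrsf4 and Tnfrsf18 are close to each other. The sources used here do not name the genome build of the coordinates in the table. By those coordinates the Tnfrsf4 probe (chromosome 5, from 172858625 to 172858684) and the Tnfrsf18 probe (from 172869396 to 172870254) are 10.7 kb apart, and the Tnfrsf9 probe lies 4.77 Mb from that of Tnfrsf18. In the RefSeq gene order of the rat assembly GRCr8, Tnfrsf4 is the next protein-coding gene to Tnfrsf18. Of all matching symbols 7 Tnfrsf genes have probes on chromosome 5, and the others with P did not share the direction. Tnfrsf25 differed by 0.20, Tnfrsf14 by 0.06 and Tnfrsf1b by 0.09, while Tnfrsf8 had A on both arrays. A range of up to 5 protein-coding genes on each side of Tnfrsf9 and of Tnfrsf18 was chosen after receptor values were seen. In it 13 other genes were measured and 9 of them lay below 0, against 5652 of all 11912 genes. Per3, beside Tnfrsf9, had A on the propolis array and Rnf223, beside Tnfrsf18, had A on the saline array. Beside Tnfrsf9, 5 of 6 were below 0, from -0.47 (Eno1) to 0.02 (Rere). Beside Tnfrsf18, 4 of 7 were below 0, from -1.23 (Isg15, an interferon-induced gene) to 0.48 (B3galt6).

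The bases before the RefSeq start of Tnfrsf9 and Tnfrsf4 are shown because both receptors of activated T cells had P on both arrays and were lower in the same pool, Tnfrsf9 by far more than Tnfrsf4. Both are 250 bases long and end just before the start of the gene (GRCr8, plus strand, Tnfrsf9 at chr5:166664244-166664493 and Tnfrsf4 at chr5:171888884-171889133).
Tnfrsf9: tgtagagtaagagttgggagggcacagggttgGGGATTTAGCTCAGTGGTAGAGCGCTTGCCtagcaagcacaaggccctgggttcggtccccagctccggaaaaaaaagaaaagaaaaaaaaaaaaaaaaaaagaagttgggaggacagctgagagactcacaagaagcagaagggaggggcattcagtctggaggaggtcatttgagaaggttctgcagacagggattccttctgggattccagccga
Tnfrsf4: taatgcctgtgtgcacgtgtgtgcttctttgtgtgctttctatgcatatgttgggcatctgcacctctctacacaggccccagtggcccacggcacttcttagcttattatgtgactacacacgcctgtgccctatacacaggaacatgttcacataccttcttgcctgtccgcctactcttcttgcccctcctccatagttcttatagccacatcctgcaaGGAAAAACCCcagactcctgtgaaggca
In the Tnfrsf4 sequence the capitals mark a match, 28 bases before the start, to GGG and CC with any 5 bases between them, a loose form of the site of NF-kB. The match is on the opposite strand, so the letters printed read GG, 5 bases and CCC. On either strand 11949 of 27457 RefSeq promoter windows (43.5%) hold such a match, and the Tnfrsf9 window holds none. Neither window holds TGANTCA, the AP-1 site (6.36% of windows), or TATAAA, the TATA box (13.1%). In the Tnfrsf9 sequence the capitals mark a stretch of 30 bases that 50 of 27457 windows (0.182%) share on either strand. It belongs to the rodent ID family, repeats that descend from a transfer RNA gene.

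Markers of T and NK cells were mostly lower in the same pool as these receptors. Of 9 listed markers 8 were measured, 7 of them below 0, with a median difference of -0.59, while Cd3e had A on both arrays. Granzyme B (Gzmb) read 4.36 and 5.29 in the propolis and saline pool, perforin (Prf1) 7.97 and 8.70, and Cd3d 8.22 and 9.10, but Cd3g read 6.71 and 6.50. The summed linear signal of the 8 markers was 1038 in the propolis pool and 1596 in the saline pool (ratio 0.65). The medians of the neutrophil (4 measured), endothelial (5) and erythroid (3) markers were -1.32, -0.63 and -0.86. In the neutrophil list Camp read higher, with A on the saline array, and Mpo had A on the propolis array. In the endothelial list Kdr, the brightest, differed by 0.10, and the ratio of the summed signals was 0.99. Kupffer cell and macrophage (6 measured) and dividing cell (6) markers were lower too, with medians of -0.73 and -0.87. By their brightest probes the stellate cell, cholangiocyte and B cell lists did not share this direction. Stellate cell markers had a median of 0.25 (3 of 4 above 0). Among them Col1a1 differed by -0.10 at its brightest probe but by -1.35 to -0.56 at its other detected probes. Lrat differed by 0.48 and, at its other probe, by 0.69. The cholangiocyte markers Krt19 and Epcam differed by -0.66 and 0.67. The B cell marker Cd79b, with A on the saline array, was at least 2.26-fold higher. The part of these markers in the receptor differences was not tested. In RNA from whole tissue, fewer cells of a type and less RNA per cell cannot be told apart.

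The other TNF receptors that were not grouped with the death receptors differed less. Tnfrsf11b, osteoprotegerin, a secreted decoy receptor, read 6.23 and 5.84 in the propolis and saline pool (0.39). Tnfrsf12a, the TWEAK receptor, which hepatocytes and progenitor cells raise in injury, differed by 0.24 (8.42 and 8.18) and by 0.02 at its other probe. Tnfrsf1b, the TNF receptor of mainly immune cells, read 9.32 and 9.23. Tnfrsf14, the herpesvirus entry mediator, read 6.09 and 6.03. Its other probe read 4.15 with P and 3.26 with A, which leaves its difference there uncertain. Tnfrsf17, BCMA of plasma cells, read 4.46 and 4.63. Of the 8 measured receptors of this kind 4 lay above and 4 below 0.

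The death receptors with P on both arrays differed by less than 1.5-fold. Tnfrsf1a, the death domain receptor of TNF, read 12.20 in the propolis and 12.30 in the saline pool (-0.10). Fas read 9.25 and 9.29 (-0.04), and its other probe, 13.9 kb away, differed by 0.24, so the probes lay on either side of 0. Tnfrsf10b, the TRAIL receptor that signals death, read 4.26 with P and 3.90 with A, a measured difference of 0.36. Faslg, the ligand of FAS, which T and NK cells make, read 4.07 with P and 3.97 with A, a measured difference of 0.10. Tnfrsf21 (DR6) differed by 0.23 (5.24 and 5.02) and Tnfrsf25 (DR3), found mainly on T cells, by 0.20 (6.61 and 6.41). The 4 of these 6 genes with P on both arrays went both ways, with differences no larger than 0.24 at any probe. The differences of Tnfrsf10b and Faslg are uncertain, since at a signal under 6 the robust SD of a difference per probe was 0.31.

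Adaptors and kinases below the receptors held 2 members near the 1.5-fold rule, on opposite sides of 0. Cflar encodes c-FLIP, which resembles caspase 8 without its protease activity and keeps it from being activated at the receptor. It read 8.06 in the propolis and 7.58 in the saline pool, 1.40-fold higher (0.48). Casp8, the initiator of the receptor route, differed by 0.24 at a low signal (5.44 and 5.20), and its probe lies 93.3 kb from that of Cflar on chromosome 9. Ripk3, the kinase that starts necroptosis, a lytic form of death, read 7.59 and 8.15, 1.47-fold lower (-0.56). Ripk1, which stands between survival and death below the TNF receptor, differed by 0.18 (7.32 and 7.14). Fadd, the adaptor that brings caspase 8 to the receptor, also differed by 0.18 (7.76 and 7.58). The 3 probes of Tradd, the first adaptor of the TNF receptor, had differences from -0.16 to 0.02. Ripk2, which serves the NOD receptors of bacterial peptides, read 6.51 and 6.59. Of the 12 genes of receptor signalling, ligand included, 8 lay above 0, with a median of 0.14.

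The apical caspases of the mitochondrial route, the apoptosome and its partner Diablo stayed within 1.5-fold. Casp9 had a difference of 0.17 by its brightest probe (6.21 and 6.04) and of -0.18 by its other probe, 12.8 kb away. Apaf1, which assembles the apoptosome around cytochrome c, read 7.11 and 7.00 (0.10). Diablo, which leaves mitochondria to neutralise inhibitors of apoptosis, read 11.37 and 11.27 (0.10). Casp2, an initiator that responds to DNA and centrosome damage, read 9.92 and 10.21 (-0.29).

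Executioner caspases cleave the cell's proteins. Casp6, which cleaves lamin A of the nuclear envelope, read 11.50 in the propolis and 11.24 in the saline pool (0.26). Of the 9 measured caspases 5 were above and 4 below 0, all within 1.5-fold.

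The inflammatory caspases lie next to each other on chromosome 8, with the probes of Casp1 and Casp12 77.0 kb apart and that of Casp4 between them. Casp1 processes interleukin 1 beta and opens gasdermin D pores; it read 7.33 in the propolis and 7.65 in the saline pool (-0.33). Casp4, which senses lipopolysaccharide inside the cell, went the other way, at 8.62 and 8.30 (0.32). Casp12 read 7.56 and 7.58 (-0.01), between its neighbours. Kupffer cells, the liver macrophages, carry much of the Casp1 and Ripk3 of the liver. Of 7 listed Kupffer cell and macrophage markers 6 were measured, all 6 below 0, with a median of -0.73 and a summed linear signal of 36146 in the propolis and 52897 in the saline pool. Marco read 7.78 and 10.31 in the propolis and saline pool and Clec4f 14.90 and 15.44. The part of these markers in the differences of Casp1 and Ripk3 was not tested.

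**Figure D2:**
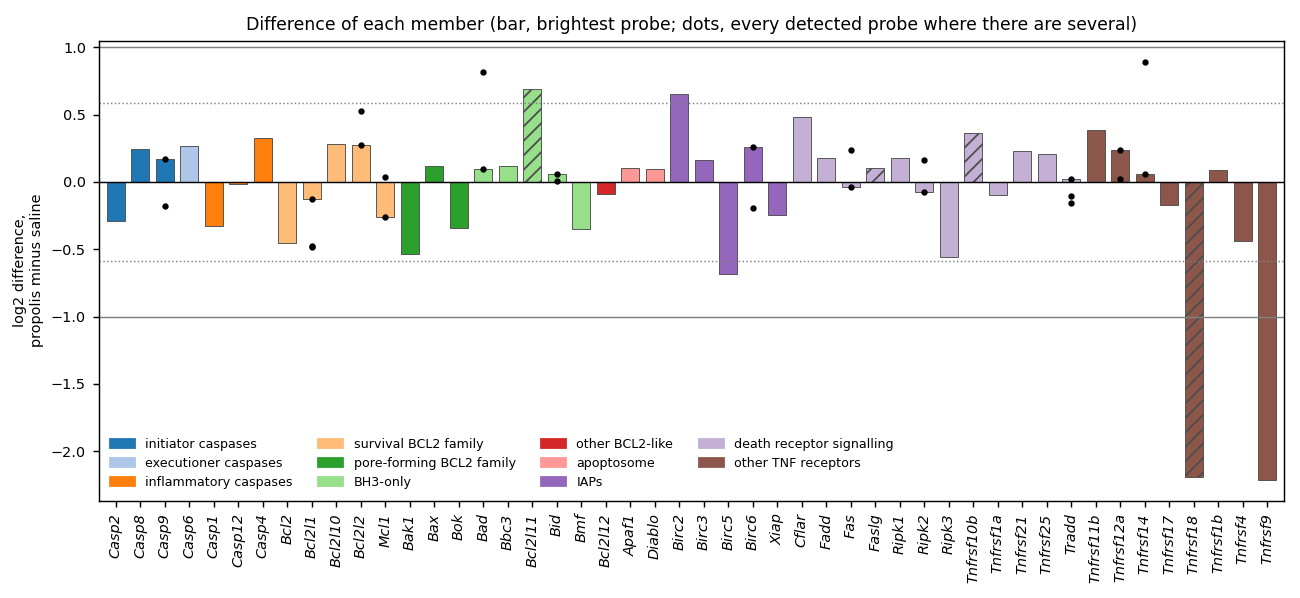
Log2 difference of 48 of the 50 members, propolis minus saline (vertical axis), coloured by role. Bars stand for the brightest probe (hatched where 1 array has the letter A), dots for every detected probe where a gene has several; dotted lines mark 1.5-fold and solid lines 2-fold. Bars past 1.5-fold are those of Bcl2l11, Birc2, Birc5, Tnfrsf9 and Tnfrsf18, of which Bcl2l11 and Tnfrsf18 have only a bound under 1.5-fold.

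Survival members of the BCL2 family went both ways. Bcl2 was at a low signal, 4.67 in the propolis and 5.12 in the saline pool (-0.45), and its other probe had A on both arrays. Mcl1, the survival protein on which hepatocytes depend together with BCL-XL, read 10.23 and 10.49 (-0.26), against 0.03 at its other probe. Bcl2l1, which encodes BCL-XL, differed by -0.12 at its brightest probe (10.52 and 10.65). A pair of its other probes, 48.6 kb or more away, read 6.60 and 7.08 and 6.38 and 6.86, each at -0.48. Bcl2l2 (BCL-W) differed by 0.27 (8.80 and 8.53) and by 0.53 at its other probe. Bcl2l10, a relative best known from ovary, read 5.57 and 5.29. Of the 5 measured survival members 3 lay below 0.

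Pore formers read lower in the propolis pool at 2 of 3 genes. Bak1, which permeabilises the mitochondrial outer membrane, read 7.98 in the propolis and 8.52 in the saline pool, 1.45-fold lower (-0.54). Bax, its partner, read 8.43 and 8.31 (0.12). Bok, a less studied relative, read 5.49 and 5.84 (-0.34). Bak1 and Bax, which can stand in for each other, thus lay on either side of 0, and each rested on 1 probe.

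BH3-only genes, which sense damage and start the mitochondrial route, differed by less than 1.5-fold at the brightest probe in the 4 members with P on both arrays. Bid, the link from the death receptors to mitochondria, read 8.61 and 8.55 (0.06), with 0.01 at its other probe. Bbc3 (PUMA), which DNA damage can induce, read 10.46 and 10.34 (0.12). Bmf, which responds to loss of attachment, read 9.91 and 10.26 (-0.35). The probes of Bad, which growth factor signals keep inactive, were apart from each other, at 0.10 for the brighter (5.93 and 5.83) and 0.82 for the other (5.16 and 4.34), 8.03 kb away. Bcl2l11 (BIM) read 4.11 with P in the propolis and 3.42 with A in the saline pool, a measured difference of 0.69 that supports only a bound, at least 1.22-fold higher. Bcl2l12, outside these classes, read 5.61 and 5.69.

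The inhibitors of apoptosis held 2 members past 1.5-fold with P on both arrays, on opposite sides. Birc2 encodes cIAP1, a ubiquitin ligase that tags RIPK1 below the TNF receptor and restrains noncanonical NF-kB signalling. It read 7.50 in the propolis and 6.84 in the saline pool, 1.58-fold higher (0.66). Its close relative Birc3 (cIAP2), whose probe lies 31.7 kb away on chromosome 8, read 7.34 and 7.18, a difference of 0.16. Birc5 encodes survivin, which acts in cell division as part of the chromosomal passenger complex. It read 6.96 and 7.64, 1.60-fold lower (-0.68). Xiap, the inhibitor that binds caspases directly, read 8.45 and 8.70 (-0.25). Birc6, a giant ubiquitin-conjugating enzyme, differed by 0.26 at its brightest probe and by -0.19 at its other probe. With 50 signal units added, neither Birc2 (0.49) nor Birc5 (-0.52) reached 1.5-fold.

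The bases before the RefSeq start of these 2 genes are shown as the members past 1.5-fold with P on both arrays outside the TNF receptors. Each is 250 bases long in GRCr8, Birc2 at chr8:13271541-13271790 on the minus strand and Birc5 at chr10:103571896-103572145 on the plus strand, written 5′ to 3′ along the gene.
Birc2: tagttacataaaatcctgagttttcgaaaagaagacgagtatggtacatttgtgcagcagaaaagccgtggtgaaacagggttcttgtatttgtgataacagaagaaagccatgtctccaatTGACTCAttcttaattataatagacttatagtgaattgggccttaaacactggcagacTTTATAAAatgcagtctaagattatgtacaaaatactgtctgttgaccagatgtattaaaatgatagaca
Birc5: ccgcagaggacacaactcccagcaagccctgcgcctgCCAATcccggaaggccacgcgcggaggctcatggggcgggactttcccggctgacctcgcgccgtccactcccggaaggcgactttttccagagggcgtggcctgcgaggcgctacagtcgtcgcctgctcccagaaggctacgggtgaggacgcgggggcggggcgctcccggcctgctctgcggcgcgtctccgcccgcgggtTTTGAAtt
In Birc2 the capitals mark a match to the AP-1 letters TGANTCA, 128 bases before the start, and overlapping matches to TATAAA on both strands. In Birc5 they mark CCAAT, 213 bases before the start, and TTTGAA, 8 bases before it, the letters of the CHR element known from promoters of cell division genes. On either strand CCAAT is in 34.3% and TTTGAA in 16% of the 27457 windows. The NF-kB letters are in 43.5% of those windows, the AP-1 letters in 6.36% and TATAAA in 13.1%. The shares among members, given below, rest on few windows and were not tested against these. The Birc5 window also holds 5 partly overlapping matches to the NF-kB letters, left in lower case, and Birc2 holds CCAAT in 2 places. Of the 34 members whose window is in the RefSeq table, 20 (58.8%) hold the NF-kB letters, 5 (14.7%) TGANTCA, 4 (11.8%) TATAAA, 7 (20.6%) CCAAT and 4 (11.8%) TTTGAA.

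Markers of dividing cells were lower in the same pool as Birc5. Of 8 listed markers 6 were measured, all 6 below 0, with a median of -0.87 and a summed linear signal of 282 in the propolis and 599 in the saline pool. Plk1 read 6.65 and 7.56, Ccnb1 5.12 and 6.17 and Bub1 5.88 and 6.48 in the propolis and saline pool. Top2a read 3.09 with A and 7.09 with P at its brightest probe, which enters the sum and the median, but differed by 0.21 at another. The part of these markers in the Birc5 difference was not tested.

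**Figure D3:**
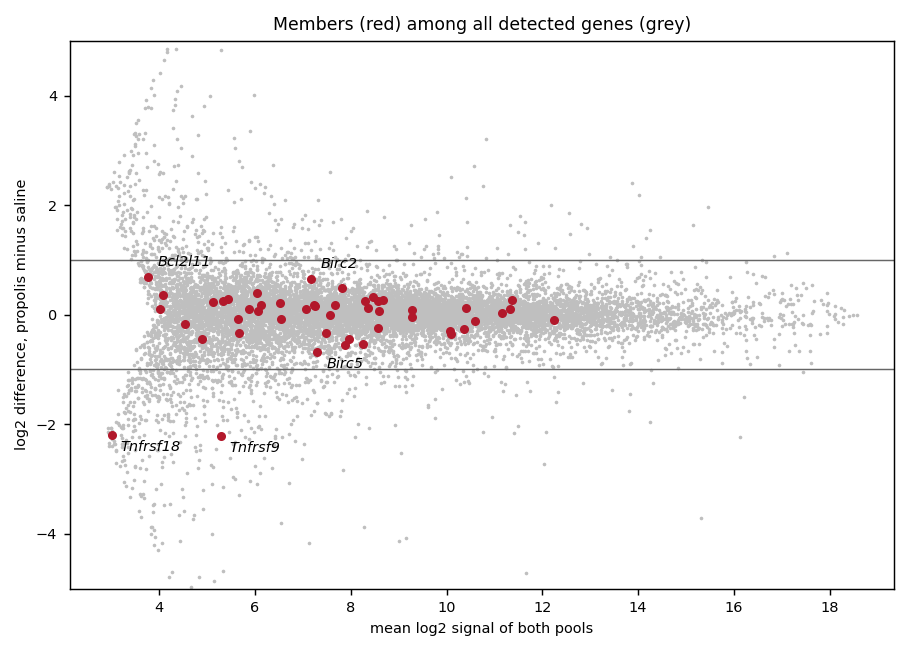
Log2 difference, propolis minus saline (vertical axis), against the mean log2 signal of both pools (horizontal axis) for all 11912 genes (grey) and 48 of the 50 members (red), each point being 1 gene read by its brightest probe. Lines mark 2-fold, members past 1.5-fold are named, 12 genes lie outside the drawn range of 5 log2 units either way, and Tnfrsf9 and Tnfrsf18 are the members below the lower line.

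Members with several probes show how far a single probe can be trusted here. In 11 members at least 2 probes had P on both arrays, and the brightest and the next lay on the same side of 0 in 6 of them (54.5%), against 70.2% of 2595 genes. The gap between their differences ran from 0.05 in Bid to 0.72 in Bad. Only 1 detected probe read each of 37 members, among them all 5 members past 1.5-fold as measured.

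In each list of other pathway genes, which hold no member, most measured genes stayed within 1.5-fold at the brightest probe. The share within 1.5-fold over all 11912 genes was 81.7%. At least 2-fold higher were 3.57% of all genes and at least 2-fold lower 5.08%. Among 10 genes of mitochondrial release and DNA fragmentation, 9 stayed within 1.5-fold and the median was 0.09. The exception was Endog, a mitochondrial nuclease, at 10.44 in the propolis and 9.18 in the saline pool (2.39-fold higher). Cytochrome c (Cycs) differed by -0.02, Ywhaz, a 14-3-3 protein that holds BAD in the cytosol, by 0.32 and Aifm1 by 0.25. The ligand list had 4 measured genes of 16, all within 1.5-fold with a median of -0.02: Tnfsf13 (APRIL) at 0.23, Ltb at -0.23, Tnfsf10 (TRAIL) at -0.13 and Tnfsf12 (TWEAK) at 0.09. Tnf and Tnfsf9, the ligand of 4-1BB, had no P on either array, nor had Tnfsf18 or Tnfsf4, the ligands of the receptors GITR and OX40.

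Of 10 measured receptor adaptors and partners 8 stayed within 1.5-fold, with a median of 0.01. Traf6, the ubiquitin ligase of interleukin 1 and Toll-like receptor signalling, read 7.44 in the propolis and 8.54 in the saline pool (2.14-fold lower). Map3k14 (NIK), the kinase of noncanonical NF-kB that cIAP1 helps degrade, read 8.19 and 7.13 (2.08-fold higher), and its other probe differed by 1.15. The receptor Cd40 differed by -0.55 at its brightest probe and by 0.21 at another. Of 10 measured NF-kB units and feedback genes 9 stayed within 1.5-fold at the brightest probe, with a median of -0.11. Nfkb2 differed by 0.20 there but by -0.72 at its other probe. Nfkbia, the feedback inhibitor, read 10.33 and 11.29 (1.94-fold lower), followed by Ikbkg (-0.23) and Ikbkb (-0.23).

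Of 6 measured necroptosis and inflammasome genes 4 stayed within 1.5-fold and 5 lay below 0, with a median of -0.27. Zbp1, a nucleic acid sensor that can engage RIPK3, read 4.28 and 5.63 (2.54-fold lower). The inflammasome adaptor Pycard differed by -0.67 but by 0.44 at its other probe. Il18 differed by -0.31 and by -0.69 at its other probe. Among 7 measured genes of ER stress and kinase death signals 5 stayed within 1.5-fold and the median was 0.09. Trib3, a pseudokinase of the ER stress response, read 10.55 and 9.11 (2.72-fold higher). The BH3-only gene Hrk read 6.86 and 8.09 (2.35-fold lower), with -1.35 at its other probe, and Foxo3 differed by -0.45.

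**Figure D4:**
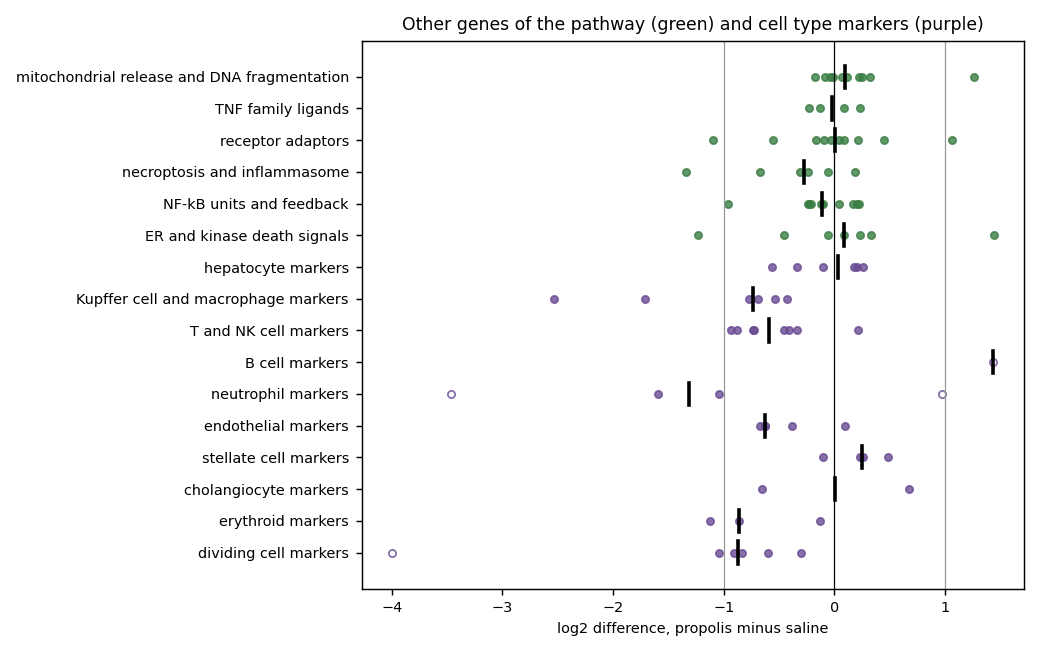
Log2 difference, propolis minus saline (horizontal axis), of other genes of the pathways (green, 6 lists) and of cell type markers (purple, 10 lists); each point is 1 gene, hollow where 1 array has the letter A, bars are list medians, and grey lines mark 2-fold. Medians lie near 0 for most pathway lists, at -0.73 for Kupffer cell and macrophage, -0.59 for T and NK cell and -0.87 for dividing cell markers.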

How the data were processed

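Total liver RNA was pooled from 6 rats per group, with a stated RNA integrity number above 8.5, and labelled with Cy3, per the labels' protocols. The submitters' processing notes name Agilent Feature Extraction 9.5. For each probe the authors deposited both log2 signals, both detection letters (P, M or A) and a linear ratio, which equals 2 to the power of the propolis minus the saline value within 1.84e-07 log2 units. Sorted columns differed by at most 0.0255, as after quantile normalization; no source used here defines the letters or any background correction, and P was taken as detected. The series matrix, also deposited in log2 by the authors, holds the same values to within 0.005 for 23054 probes, with column medians of 7.53 (propolis) and 7.52 (saline).

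Signals were used as deposited, with symbols from the table; the Entrez gene IDs of all 55 matching symbols are in RefSeq GRCr8, which also gave gene order and promoter windows. The design expected no test with 1 array per group; genes were counted at 1.5-fold and 2-fold. For a gene with P on 1 array the fold is a bound against the higher of the dim value and the lowest P value of that array. Such a bound leaves out the spread between probes. A probe with A can also read above that lowest value, as the other Ripk2 probe did on the saline array (4.27). Some items are not reported here, though counts over members include them. The other members were named in full, pathway genes by up to 3 with the largest difference and P on both arrays, plus genes named after their values were seen: cytochrome c, Tnfsf12, the ligands without P, single marker genes and chromosome neighbours. The motifs and printed promoters were also chosen then. Members and lists were chosen with earlier results of these data known. Counting was tested on simulated data. There every probe had P and all probes of a changed gene moved alike, so the detection filter and the choice of probe were not tested. Python 3.11.15, numpy 2.4.6, pandas 2.3.3, statsmodels 0.14.6 and matplotlib 3.10.9 were used. The number of arrays limits the precision.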

Additional observations from a re-analysis of the deposited data

How the results depend on the processing

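No paired analysis was possible because each group holds 1 array. Both arrays had the same median (5.07) and the same 75th percentile (7.94), so centring on either could change nothing. Sorted columns were nearly equal, so quantile normalization could change little. Each member's brightest probe was already a detected one, so choosing the brightest detected probe could not move a member. Of 12 alternatives, median centring, the 75th percentile, quantile normalization, loess centring on signal (span 0.3), no filter on detection, the brightest detected probe, the mean of detected probes and symbols updated by Entrez gene ID (51 members, with Bcl2a1 added) left each count of members within 1.5 times its value and moved the median of the members by less than 0.16. Without the genes that have A on 1 array (P on both arrays, or the series matrix values, 46 members each) and with those genes at their bound, 1 member in place of 2 was at least 2-fold lower (Tnfrsf9) and 1 in place of 2 at least 1.5-fold higher (Birc2). With 50 signal units added to both pools, 0 members passed the 2-fold rule downwards, 0 the 1.5-fold rule upwards and 1 the 1.5-fold rule downwards. Over all alternatives the difference of Tnfrsf9 ran from -2.25 to -0.97, of Tnfrsf18 from -2.27 to -0.27, of Birc2 from 0.49 to 0.66 and of Birc5 from -0.70 to -0.52. Of 592 recomputed differences of single members, counting the settings that could change little or nothing, 16 moved by 0.16 or more. None of a member past 1.5-fold changed its sign. With the mean of detected probes Casp9 (-0.005), Fas (0.10), Ripk2 (0.04) and Tradd (-0.08) changed theirs. The counts of members above and below 0 include these genes. Signals near 3.83 limit what can be said of Tnfrsf9, Tnfrsf18, Bcl2l11, Faslg and Tnfrsf10b.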
